A study of Homo sapiens with 6 samples.

Results

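The TMED genes encode the p24 family, small membrane proteins that cycle between the endoplasmic reticulum and the Golgi apparatus. The 10 human members, TMED1 to TMED10, were taken by gene symbol, and the transcript values of each gene were added. All 10 were found among 58233 genes, and all 10 averaged 1 FPKM or more across the 6 libraries, the level needed for testing, as did 12853 genes in all. FPKM is the number of sequenced fragments scaled to transcript length and library total. The family was chosen by its symbols after TMED6 had been seen among the genes with small p-values in the same comparison, so the difference of TMED6 is given as a description that supports nothing further. RNA was sequenced from the liver cancer line Huh7, as the labels name it. For 3 libraries the cells had been transfected with a plasmid that overexpresses TP53TG1, a long noncoding RNA gene, and for the other 3 with a control plasmid. The labels give no promoter, dose or time, nor whether replicates came from separate cultures, so p-values reflect only the scatter of these samples, part of which can be technical.

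p24 proteins have a lumenal GOLD domain, a single membrane span and a short cytoplasmic tail. The tail binds the coats of transport vehicles: COPII, which forms at the endoplasmic reticulum, and COPI, which forms at the Golgi and returns proteins to the endoplasmic reticulum. The proteins work in hetero-oligomers, and they are best known for helping proteins with a glycosylphosphatidylinositol (GPI) anchor leave the endoplasmic reticulum. Sequence divides the family into an alpha class (TMED4 and TMED9), a beta class (TMED2), a gamma class (TMED1, TMED3, TMED5, TMED6 and TMED7) and a delta class (TMED10). TMED8 carries a GOLD domain but is not placed in any of these classes.

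The tail is the part that meets the coats, so the last 48 bases of the coding sequence, stop codon included, are shown for each member. TMED8 lies outside the classes, and whether its end is such a tail was not tested. They were read from the GENCODE 29 protein-coding transcript with the highest mean FPKM. Capitals mark adjacent in-frame phenylalanine codons and any lysine codon among the last 4 codons before the stop.
TMED10: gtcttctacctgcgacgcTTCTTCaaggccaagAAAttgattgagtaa
TMED2: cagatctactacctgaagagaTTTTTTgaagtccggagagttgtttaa
TMED4: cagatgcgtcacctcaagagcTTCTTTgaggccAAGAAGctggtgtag
TMED9: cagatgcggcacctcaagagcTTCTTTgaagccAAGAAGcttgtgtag
TMED1: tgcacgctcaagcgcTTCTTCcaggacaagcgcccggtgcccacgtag
TMED3: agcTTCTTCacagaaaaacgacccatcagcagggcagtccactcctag
TMED7: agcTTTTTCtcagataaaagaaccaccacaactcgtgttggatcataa
TMED5: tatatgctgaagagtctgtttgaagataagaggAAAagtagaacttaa
TMED6: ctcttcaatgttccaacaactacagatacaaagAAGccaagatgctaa
TMED8: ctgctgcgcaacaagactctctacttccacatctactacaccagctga

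The pair of phenylalanine codons was present in 7 of the 10 coding ends and absent from those of TMED5, TMED6 and TMED8. TMED4 and TMED9, the alpha class, were the 2 members with 2 lysine codons among the last 4 before the stop, the dilysine signal known to bind COPI. TMED10 and TMED6 also hold 2 adjacent lysine codons, but the first lies just outside the last 4 and is not marked. The count does not say which tails bind COPI. The coding ends of TMED4 and TMED9 matched at 45 of 48 bases, the closest pair in the family. TMED2, of another class, matched TMED9 at 32 and TMED4 at 30 of 48 bases. Within the gamma class the matches ran from 8 bases, for TMED1 and TMED6, to 29, for TMED3 and TMED7. The coding sequence of TMED8 was the longest, with 325 codons, against 201 codons in TMED2 and 240 in TMED6.

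TP53TG1 stood at 69.8, 134 and 70.5 FPKM in the libraries labelled with it and at 10.6, 5.25 and 6.15 FPKM in the controls, replicates 1 to 3 in order, as all lists of values below. Summed FPKM ran from 599081 in TP53TG1 replicate 1 to 890541 in control replicate 1. The factors that bring libraries to a common scale by the median of gene ratios ranged from 0.982 to 1.18, except for 0.607 in TP53TG1 replicate 1. Both libraries numbered 1 stood apart: the FPKM-weighted length of protein-coding transcripts was 1313 nt (control) and 1229 nt (TP53TG1), against 1654 to 1711 nt in the other 4. Low FPKM values, read as single fragments, gave 19900000 to 25800000 fragments a library, an estimate with no interval.

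TMED10, the delta member and an obligate partner in many p24 complexes, had the highest summed level. It stood at 166, 200 and 181 FPKM in the controls and at 94.1, 204 and 178 FPKM with TP53TG1. TMED2, the beta member that pairs with TMED10, stood at 101, 114 and 112 FPKM in the controls and at 49.2, 111 and 109 FPKM with TP53TG1. In both genes TP53TG1 replicate 1 was the lowest library, and the other 2 TP53TG1 libraries lay inside or near the range of the controls.

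Of the alpha class, TMED9 stood at 114, 96.8 and 111 FPKM in the controls and at 65.6, 111 and 127 FPKM with TP53TG1. TMED4 stood at 34.4, 33.6 and 39.4 FPKM in the controls and at 15.8, 35.4 and 32.5 FPKM with TP53TG1. The groups overlapped for both. TMED9 was thus about as abundant as TMED2, and TMED4 lower than both in every library.

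The gamma class covered the widest range of levels. TMED3 stood at 99.5, 75.8 and 72.4 FPKM in the controls and at 72.0, 69.7 and 75.3 FPKM with TP53TG1. TMED1 stood at 35.8, 31.4 and 29.5 FPKM in the controls and at 24.1, 28.6 and 30.6 FPKM with TP53TG1. For TMED3, unlike most members, TP53TG1 replicate 1 lay inside the range of the other TP53TG1 libraries. TMED5, which has been linked to Wnt secretion, stood at 24.4, 35.9 and 34.3 FPKM in the controls and at 14.1, 30.7 and 30.9 FPKM with TP53TG1. TMED7, known for carrying Toll-like receptor 4 to the cell surface, stood at 9.48, 24.9 and 21.2 FPKM in the controls and at 2.38, 22.5 and 20.6 FPKM with TP53TG1. For TMED5 and TMED7 the lowest library of each group was the one numbered 1. TMED8, outside the classes, stood at 4.65, 8.40 and 6.42 FPKM in the controls and at 1.97, 7.18 and 7.05 FPKM with TP53TG1, again lowest in the libraries numbered 1.

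TMED6 had the lowest level of the family. It stood at 3.19, 3.61 and 1.84 FPKM in the controls and at 0.40, 0.65 and 0.42 FPKM with TP53TG1. Every control lay above every TP53TG1 library, and TP53TG1 replicate 1 was not set apart from the other 2.

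**Figure D1:**
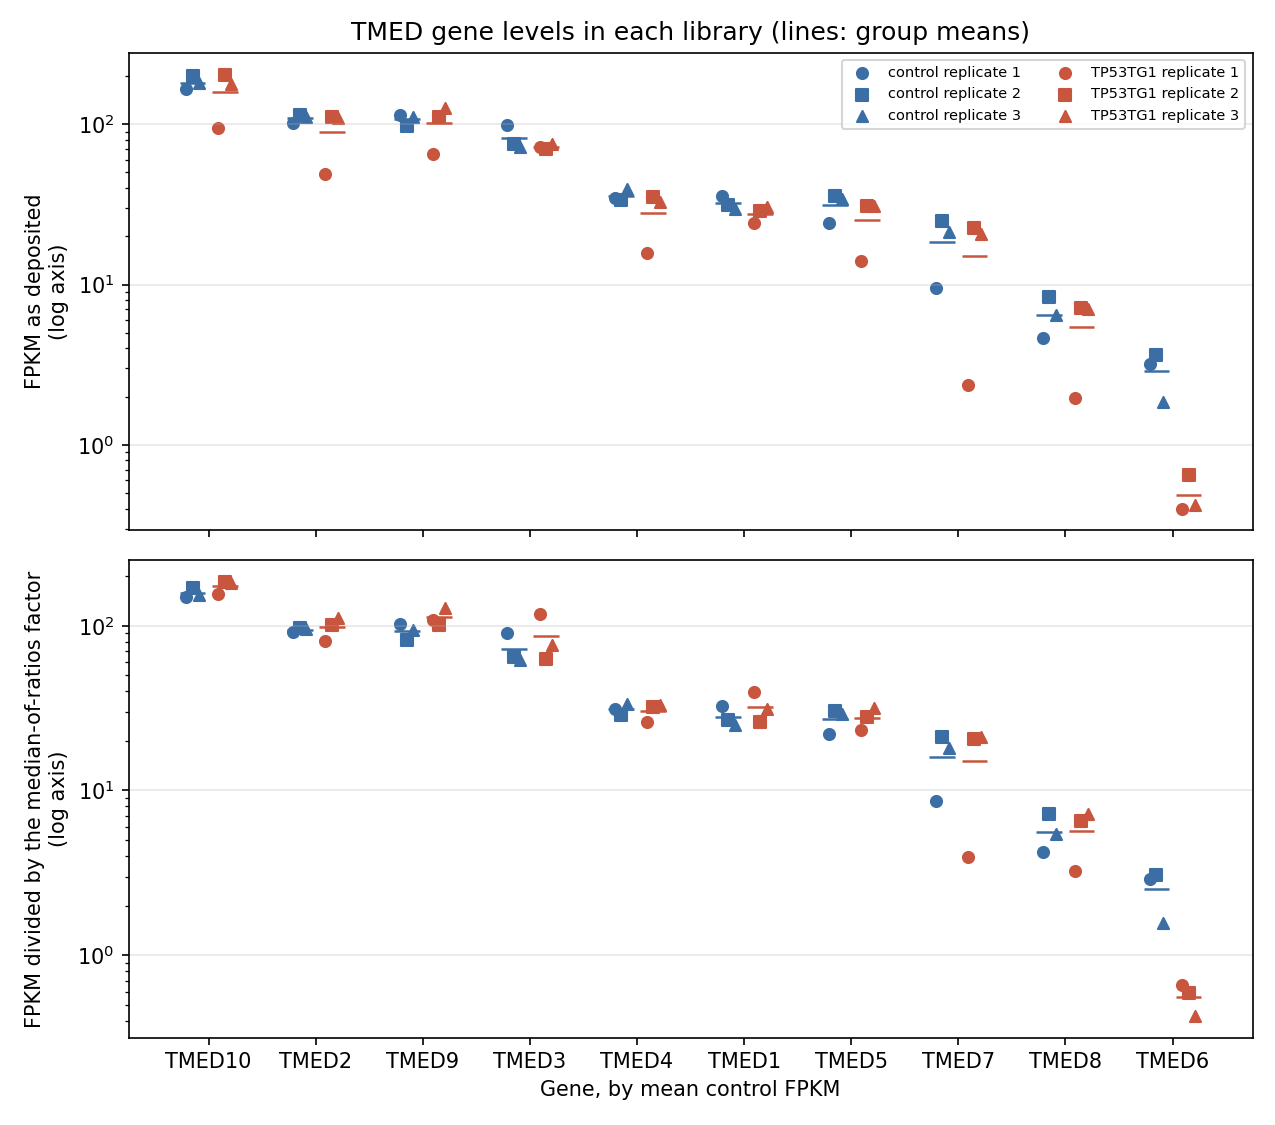
FPKM of the 10 TMED genes in each library on log axes, as deposited (top) and after division by the median-of-ratios factor (bottom). Points are libraries, with the shape giving the replicate number, and lines are group means. TMED6 is the gene whose 3 TP53TG1 libraries, at 0.40 to 0.65 FPKM, all lie below the 3 controls, at 1.84 to 3.61 FPKM, while the circles of TP53TG1 replicate 1 lie low for most genes in the top panel.

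By mean FPKM in the controls the order was TMED10 (182), TMED2 (109), TMED9 (107), TMED3 (82.6), TMED4 (35.8), TMED1 (32.2), TMED5 (31.5), TMED7 (18.5), TMED8 (6.49) and TMED6 (2.88). Control ranges of neighbours were separate between TMED10 and TMED2, TMED3 and TMED4, TMED7 and TMED8, and TMED8 and TMED6. For the other 5 neighbouring pairs the control ranges overlapped, so their order is not resolved. TMED10, TMED2, TMED9 and TMED3 together held 77.9% to 82.7% of the family's FPKM in each library. The summed family stood at 592, 624 and 608 FPKM in the controls and at 340, 621 and 611 FPKM with TP53TG1. After division by the factors it was 536, 531 and 518 in the controls and 559, 563 and 622 with TP53TG1.

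The comparison of TP53TG1 with control asked which genes the overexpressed RNA changes. TMED6 averaged 2.88 ± 0.925 FPKM in the controls and 0.490 ± 0.139 FPKM with TP53TG1 (SD, n = 3 each), 5.88-fold lower, or 4.49-fold lower after scaling. Set against the control of the same number, the TP53TG1 libraries reached 0.125, 0.180 and 0.228 of its level, and 0.228, 0.192 and 0.273 after scaling. Fitted to log2(FPKM + 1), a scale that understates the change of low genes, the log2 fold change was -1.355 (SE 0.323). After scaling it was -1.145 (SE 0.283). In bulk RNA, fewer cells with a transcript and less transcript per cell cannot be told apart.

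These differences of TMED6 rest on few fragments. If the lowest FPKM values are 1 fragment, its transcripts held about 56, 57 and 31 fragments in the controls and about 5, 10 and 8 in the TP53TG1 libraries. The TP53TG1 mean lay below the 1 FPKM needed for testing, so the gene entered the test through its controls. No member passed at an adjusted p of 0.05 (limma with Benjamini-Hochberg adjustment; 0.748 for TMED6, up to 0.812 for TMED9), where 0.00778% of all tested genes did. That was 1 gene, TTC28-AS1_2, named after its value was seen. Unadjusted, 302 genes (2.35% of those tested) had a p under 0.05, 1 of them a member, TMED6. With the replicate number as a block TMED6 passed (limma adjusted p = 0.00553), as 0.91% of all tested genes did on the lower side. The block left the log2 fold change of TMED6 at -1.355 and did not lower its SE, which was 0.334 against 0.323 without the block. With block and median-of-ratios scaling together its limma adjusted p was 0.640, and 0.0467% of genes passed, 6 in all and none of them a member. With median-of-ratios scaling alone, or with TPM, TMED6 did not pass. Its log2 fold change ran from -2.31 with a pseudocount of 0.1 to -1.145 with scaling. Without TP53TG1 replicate 1 it was -1.31, and -1.24 without both libraries numbered 1.

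The other 9 members lay with the bulk of genes. Their log2 fold changes ran from -0.60 for TMED7 (SE 0.729) to -0.13 for TMED9 (SE 0.302), where the median of all tested genes was -0.35. The median of the 10 members was -0.35 too. With median-of-ratios scaling the median of all tested genes was -0.01 and that of the members 0.03. The 9 then ran from -0.27 for TMED7 to 0.27 for TMED9, with 6 of the 10 members above 0. For these 9 the sign turned under median-of-ratios scaling in TMED1, TMED2, TMED3, TMED5, TMED9 and TMED10, and not in TMED4, TMED7 and TMED8. Of those that turned, all but TMED9 (0.27, SE 0.214) then lay within 1 SE of 0. Under TPM, where the median of all tested genes was -0.13, the sign turned in TMED1 (0.05), TMED3 (0.09) and TMED9 (0.13). TMED2 (-0.10), TMED5 (-0.12) and TMED10 (-0.004) stayed below 0. Groups overlapped for all 9, with and without scaling. Of the 10 members 1, TMED6, had groups that did not overlap, lower with TP53TG1. Among all tested genes this held for 13.3%, and after scaling for 2.18% on the lower and 1.89% on the higher side.

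**Figure D2:**
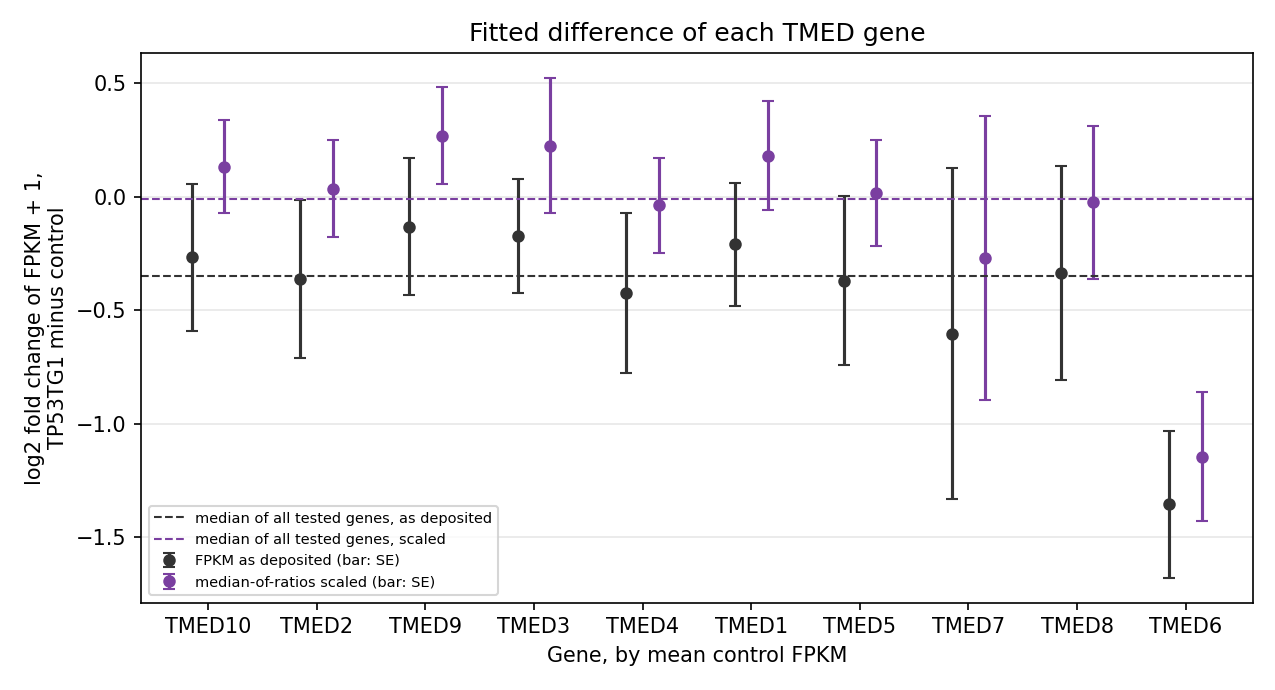
Fitted log2 fold change of FPKM + 1, TP53TG1 minus control, for each TMED gene, from FPKM as deposited and after median-of-ratios scaling. Bars are SE and dashed lines the medians of all tested genes, -0.35 and -0.01. The 9 genes other than TMED6 lie between -0.60 and -0.13 as deposited and between -0.27 and 0.27 scaled, and TMED6 lies at -1.355 and -1.145.

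A single library moved several members. Without TP53TG1 replicate 1 the log2 fold change of TMED7 turned from -0.60 to 0.31 (SE 0.408). That of TMED8 turned from -0.34 to 0.15 (SE 0.304) and that of TMED9 from -0.13 to 0.15 (SE 0.196). TMED2 and TMED10 then stood at 0.02 and 0.07. The median of all tested genes rose as well, from -0.35 to -0.12. With both libraries numbered 1 left out, the 9 members other than TMED6 lay between -0.18 for TMED5 and 0.195 for TMED9, at a median of all genes of -0.155.

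The libraries numbered 1 differed from replicates 2 and 3, and not alike for all members. After scaling, TMED7 in replicate 1 was 0.438 of the mean of replicates 2 and 3 in the controls and 0.189 with TP53TG1. TMED8, whose only transcript has 7784 nt, was at 0.667 and 0.474, and TMED5 at 0.739 and 0.784. TMED3, TMED1 and TMED6 went the other way. TMED3, whose main transcript has 1475 nt, stood at 1.43 and 1.69, TMED1 (1340 nt) at 1.25 and 1.39, and TMED6 (938 nt) at 1.25 and 1.29. TMED9 (1473 nt), of similar length to TMED3, was at 1.17 and 0.940. TMED10, with an FPKM-weighted length of 1419 nt but a protein-coding transcript of 4127 nt, was below 1 in both groups, at 0.926 and 0.847. TMED2 was at 0.953 and 0.763, and TMED4 at 1.00 and 0.797. No relation to length was tested. The ratios are a description over 10 genes that share the same libraries. The shorter weighted transcript length of both libraries, given above, moves with them, and its part was not tested.

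**Figure D3:**
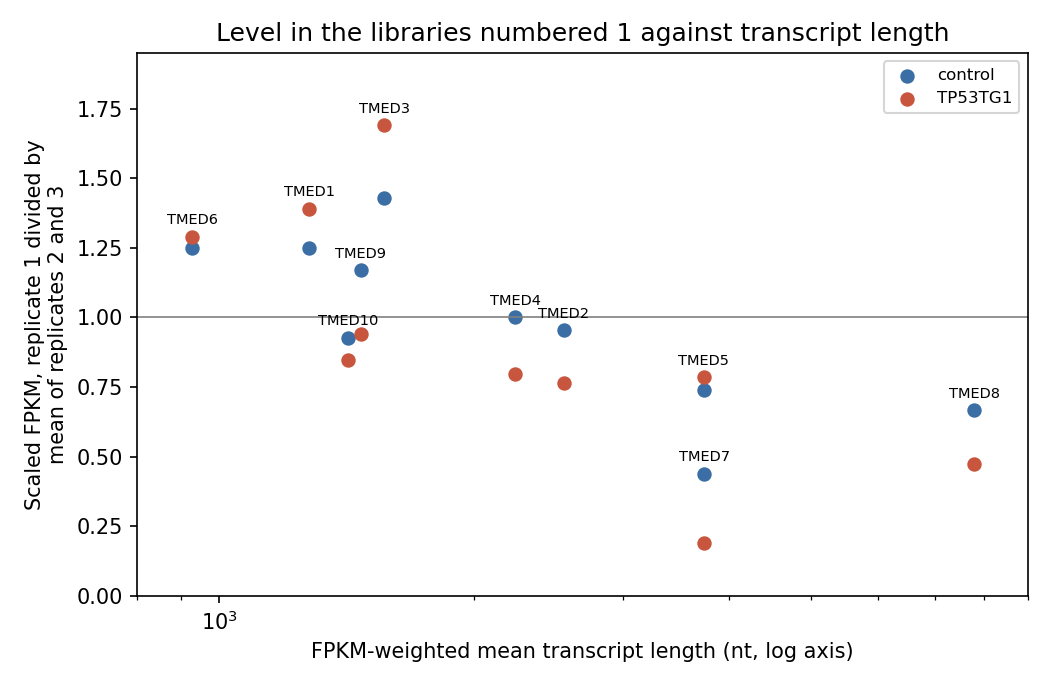
Scaled FPKM in replicate 1 divided by the mean of replicates 2 and 3 of the same group, against the FPKM-weighted mean transcript length of each TMED gene (log axis). Each gene has 1 point per group. The genes with the longest transcripts, TMED5, TMED7 and TMED8, lie below 1 in both groups, as does TMED2. TMED1, TMED3 and TMED6 lie above 1 in both. TMED10 lies below 1 in both, at a weighted 1419 nt, though its protein-coding transcript has 4127 nt.

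The summed level of a gene can hold transcripts that do not encode the protein. In TMED10 the protein-coding transcript, ENST00000303575 of 4127 nt, stood at 40.4, 37.2 and 33.6 FPKM in the controls and at 20.2, 36.8 and 40.6 FPKM with TP53TG1. It held 18.1% to 24.4% of the gene's FPKM, but 64.4% to 71.7% of its estimated fragments, since FPKM divides by length and the other abundant transcripts are short. Most of the remaining FPKM lay in 2 short transcripts. ENST00000555085, annotated as a retained intron, has 553 nt and spans bases 19 to 29076 from the gene's start, and ENST00000557670, annotated as a processed transcript, has 917 nt and spans 28734 to 42275. The first stood at 44.7, 102 and 86.6 FPKM in the controls and at 15.7, 105 and 81.6 FPKM with TP53TG1. The second stood at 79.7, 57.1 and 58.5 FPKM in the controls and at 57.3, 60.6 and 54.6 FPKM with TP53TG1. The transcript nearer to the gene's start was thus low in both libraries numbered 1, and the one farther along was not.

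Counting protein-coding transcripts alone changed the order of levels. TMED10 moved from rank 1 to rank 4, at 37.1 ± 3.39 FPKM in the controls, behind TMED2 (109 ± 6.87), TMED9 (107 ± 8.89) and TMED3 (79.9 ± 15.5; SD, n = 3 each). Its control values of 33.6 to 40.4 FPKM overlapped those of TMED4, at 31.9 to 38.1 FPKM, so the order of these 2 is not resolved. TMED5 averaged 15.2 ± 6.24 FPKM (SD, n = 3), with values that overlapped those of TMED7. The TMED5 transcript ENST00000370290, annotated as a target of nonsense-mediated decay, stood at 16.3, 16.3 and 16.3 FPKM in the controls and at 9.63, 12.0 and 13.9 FPKM with TP53TG1. It made up 67.0% (control) and 68.2% (TP53TG1) of TMED5 FPKM in the libraries numbered 1, against 39.0% to 47.6% elsewhere. Within replicates 2 and 3 it was 45.4% and 47.6% in the controls and 39.0% and 45.0% with TP53TG1. The part of the plasmid and that of the libraries numbered 1 were not tested. For TMED1, TMED2, TMED4, TMED8 and TMED9 protein-coding transcripts held at least 95.0% of FPKM in every library. The sources used here do not say how fragments were divided among transcripts that share exons.

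The difference of TMED6 lay in its protein-coding transcript. ENST00000288025, of 938 nt and 4 exons, stood at 3.11, 3.44 and 1.76 FPKM in the controls and at 0.26, 0.57 and 0.42 FPKM with TP53TG1. The retained-intron transcript ENST00000568748 stood at 0.08, 0.17 and 0.08 FPKM in the controls and at 0.14, 0.08 and 0.00 FPKM with TP53TG1, about 2 fragments or fewer in each library. The protein-coding share of 65.0% in TP53TG1 replicate 1 therefore rests on about 5 fragments. In TMED3 the processed transcript ENST00000558562 stood at 12.1 FPKM in TP53TG1 replicate 1 and at 0.00 to 1.39 FPKM in the other 5 libraries.

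**Figure D4:**
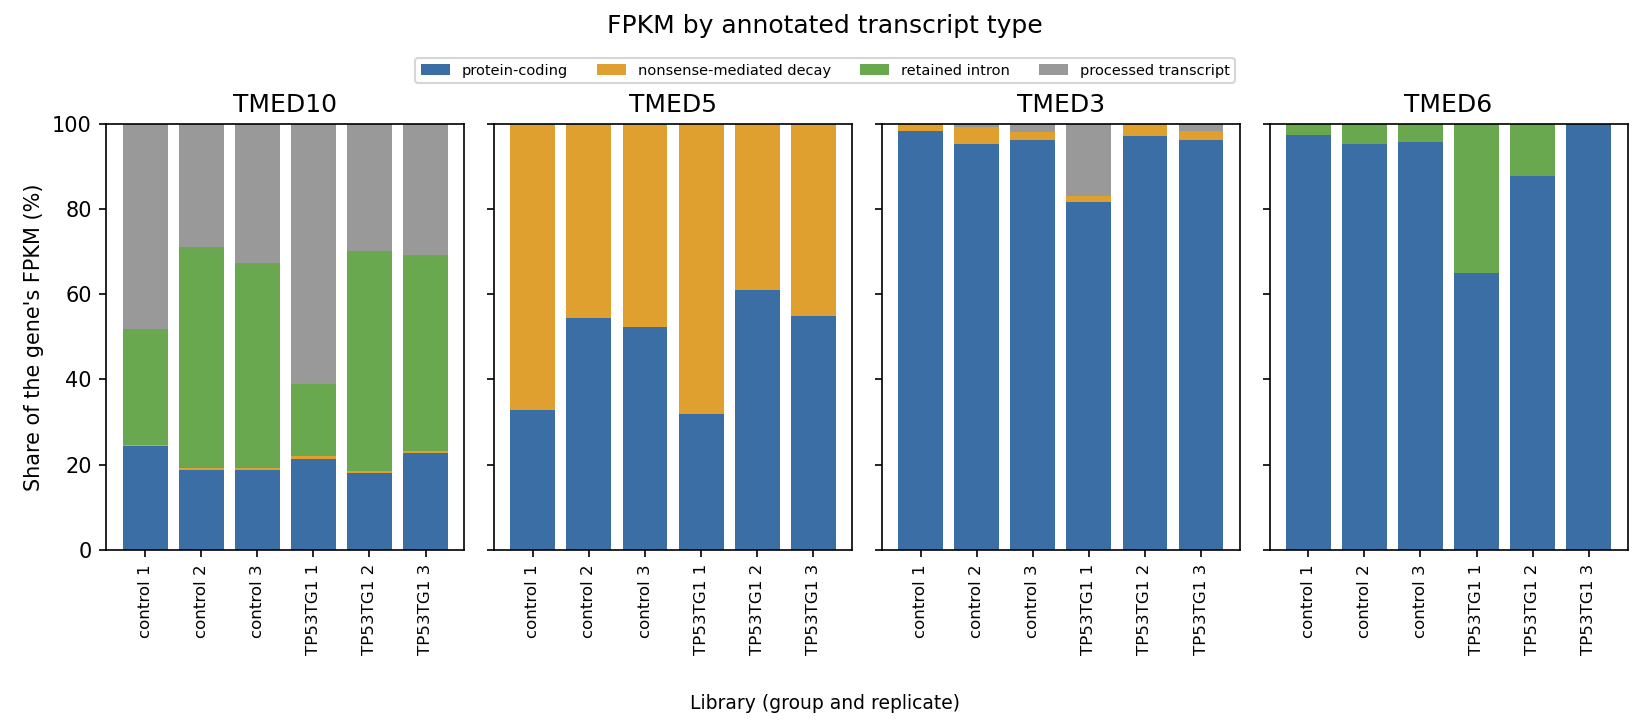
Share of FPKM by annotated transcript type in each library for TMED10, TMED5, TMED3 and TMED6, as stacked bars that sum to 100%. In TMED10 protein-coding transcripts hold 18.1% to 24.4%, and in TMED5 the nonsense-mediated decay share is highest in the libraries numbered 1. The TMED6 shares with TP53TG1 rest on 5 to 10 fragments a library.

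Some members share sequence with other annotated genes. TMED6 lies on chromosome 16, 69343248 to 69351809 (GRCh38, minus strand), and shares 466 exonic bases with AC026464.1 on the same strand, which was listed at 0 in all 6 libraries. TMED7 (chromosome 5, 115613508 to 115632992, minus strand) shares 935 exonic bases with the readthrough gene TMED7-TICAM2, at 0.00 to 1.92 FPKM. TMED1 (chromosome 19, 10832438 to 10836318, minus strand) shares 776 exonic bases, 51.3% of its own, with DNM2 on the opposite strand, which stood at 66.1 to 134 FPKM. The sources used here do not say whether the libraries keep strand, so reads of TMED1 and DNM2 may not be separable. TMED5 shares 675 exonic bases with CCDC18 on the opposite strand, at 1.90 to 8.07 FPKM. TMED10 (chromosome 14, 75131470 to 75176631, minus strand) shares 0 exonic bases with its antisense neighbour AL049780.2. TMED11P, a pseudogene of the family, was listed at 0 in all 6 libraries.

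RefSeq (GRCh38.p14) gave windows of 250 bases before to 50 after an annotated start for 8 of the 10 members, 9 windows in all, since TMED1 had 2. The 300 bases are shown for TMED6, the member with separate groups, and for TMED10, the member with the highest summed level, in each gene's own direction. Capitals mark ACGTGG, the core of an element known to be bound by XBP1. Both strands were searched, and the letters were chosen after the sequences had been seen.
TMED6, chr16:69351737-69352036, minus strand: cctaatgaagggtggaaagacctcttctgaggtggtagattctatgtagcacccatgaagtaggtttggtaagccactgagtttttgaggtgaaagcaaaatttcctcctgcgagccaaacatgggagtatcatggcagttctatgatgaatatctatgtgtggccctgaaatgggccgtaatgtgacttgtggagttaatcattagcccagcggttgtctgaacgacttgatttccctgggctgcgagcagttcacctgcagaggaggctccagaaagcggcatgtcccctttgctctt
TMED10, chr14:75176563-75176862, minus strand: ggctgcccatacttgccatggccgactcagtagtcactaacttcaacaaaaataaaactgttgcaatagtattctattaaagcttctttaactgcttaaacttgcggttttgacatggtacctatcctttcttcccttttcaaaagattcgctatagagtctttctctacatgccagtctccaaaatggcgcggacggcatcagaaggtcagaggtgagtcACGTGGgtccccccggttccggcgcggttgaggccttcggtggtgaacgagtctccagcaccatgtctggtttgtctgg

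ACGTGG was found in 4 of the 9 windows, those of TMED2, TMED3, TMED7 and TMED10, and in 9.72% of all 35116 windows of the same length. Because the letters were chosen after the members' sequences had been seen, the difference between these shares supports nothing further. These letters were not in the windows of TMED1, TMED5, TMED6 and TMED8. The TMED6 window held 6 CpG dinucleotides, against 13 in TMED10 and 18 to 34 in the other members' windows, where the median of all windows was 14. Its GC content was 48.3%, the same as that of TMED10, and that of the others ran from 59.0% to 75.0%. A match of letters describes the sequence and does not show binding.

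Over the 6 libraries, the tested gene most like TMED6 in its profile was MSR1, a macrophage scavenger receptor gene. The profile of TMED6 is mostly its difference between the groups, so genes like it are lower with TP53TG1 by selection and support nothing further. Likeness was the root mean square difference of scaled log2 values, each gene centred on its own mean. It was 0.129 for MSR1, where TMED6 itself varied by 0.614. MSR1 stood at 2.33, 2.33 and 0.94 FPKM in the controls and at 0.11, 0.48 and 0.17 FPKM with TP53TG1. Next came SPOCK2, an extracellular proteoglycan gene (0.180), the noncoding RNA AL592211.1 (0.231), U2AF1L5 (0.253) and LINC01510 (0.266). AL592211.1 stood at 0.42, 0.27 and 0.67 FPKM with TP53TG1. MSR1 and AL592211.1 thus lay below 1 FPKM in every TP53TG1 library and entered the test through their controls, as TMED6 did. U2AF1L5 is a near-identical copy of the splicing factor gene U2AF1, so its values are uncertain. The nearest other member was TMED4, at 0.637 and rank 3412. TMED10 varied by 0.117, and the genes most like it were FAM208A (0.0306), SNAPC3 (0.0324), EXOC2 (0.0336), LRRC57 (0.0435) and DARS (0.0517). TMED2 was the member nearest to TMED10, at 0.0913 and rank 84, and TMED7 the farthest, at 0.744.

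Genes of the machinery that p24 proteins work with were read against the same test, which TP53TG1 itself missed (log2 fold change 3.46, SE 0.381, limma with Benjamini-Hochberg adjusted p = 0.0573). A gene that did not pass is therefore not shown to be unchanged. Of 86 genes in 7 lists of the early secretory pathway, 78 were tested and 0 passed by limma with Benjamini-Hochberg adjustment. The 2 genes with an unadjusted p under 0.05 were PGAP2 and CEACAM5, 2.56% of the 78 beside 2.35% of all. The median log2 fold change of the 78 was -0.34, beside -0.35 for all tested genes, and 0.04 beside -0.01 after scaling. In 11 of the 78 (14.1%) every TP53TG1 library lay below every control, beside 13.3% of all tested genes. After scaling the groups were separate for 3 genes lower (3.85%) and 2 higher (2.56%), beside 2.18% and 1.89% of all.

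In the COPI coat and Arf list all 17 genes were tested, with a median of 0.06 after scaling, 10 above the median of all genes and 7 not. COPZ1, a coatomer subunit gene, averaged 156 ± 20.7 FPKM in the controls and 109 ± 24.7 FPKM with TP53TG1. ARF5, a GTPase gene, averaged 25.0 ± 7.88 and 15.1 ± 5.28 FPKM, and ARFGAP1, an Arf GTPase activator gene, 58.0 ± 4.15 and 42.5 ± 11.3 FPKM (SD, n = 3 each). Their log2 fold changes were -0.53, -0.70 and -0.47 as deposited and -0.13, -0.32 and -0.08 after scaling. Of the COPII list 13 of 15 were tested, with a scaled median of 0.10 and 10 above the median of all genes. TFG, which organises endoplasmic reticulum exit sites, averaged 84.6 ± 5.96 and 65.0 ± 15.6 FPKM, SAR1B, the GTPase that starts the coat, 30.5 ± 4.71 and 23.0 ± 9.61 FPKM (SD, n = 3 each). Their log2 fold changes were -0.40 and -0.48 as deposited and -0.01 and -0.095 after scaling, and that of the exit site scaffold SEC16A was -0.33 and 0.06. In both lists the smallest adjusted p was 0.748 (limma, Benjamini-Hochberg).

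Among other cargo receptors 15 of 16 were tested, with a scaled median of 0.10 and 12 above the median of all genes. ERGIC3 averaged 154 ± 21.6 FPKM in the controls and 116 ± 14.3 FPKM with TP53TG1, the lectin LMAN2 129 ± 19.7 and 97.9 ± 16.4 FPKM, and the large-cargo receptor MIA3 26.3 ± 6.33 and 16.6 ± 4.28 FPKM (SD, n = 3 each). The scaled log2 fold changes of ERGIC3, LMAN2 and MIA3 were -0.005, 0.001 and -0.25. The 12 SNARE, tether and scaffold genes had a scaled median of -0.06, with 3 above the median of all genes. BET1, a SNARE gene, had a scaled log2 fold change of -0.10, the Golgi scaffold genes GORASP1 and GOLGA2 -0.21 and -0.09.

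GPI-anchored proteins are the cargo for which the family is best known. Of the 9 genes that attach or remodel the anchor 4 lay above the median of all genes after scaling and 5 did not, with a list median of -0.04. PGAP2, needed for remodelling the anchor's lipid, stood at 36.0, 23.3 and 26.4 FPKM in the controls and at 10.5, 15.9 and 16.4 FPKM with TP53TG1. Its groups did not overlap before or after scaling. Its log2 fold change of -0.95 (SE 0.324) had an adjusted p of 0.748 by limma, and was -0.57 after scaling. PIGK and GPAA1, subunits of the enzyme that attaches the anchor, had scaled log2 fold changes of -0.28 and 0.08.

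Of 14 genes for GPI-anchored proteins 10 were tested, with a scaled median of 0.15, 6 above the median of all genes and 4 not. CEACAM5, the carcinoembryonic antigen gene, stood at 9.69, 5.63 and 6.96 FPKM in the controls and at 1.59, 4.26 and 4.40 FPKM with TP53TG1. CEACAM6 averaged 22.5 ± 4.50 and 12.8 ± 5.52 FPKM, and CD55, a complement regulator gene, 62.6 ± 18.8 and 37.9 ± 9.42 FPKM (SD, n = 3 each). Their scaled log2 fold changes were -0.675, -0.47 and -0.30 in the order named. Groups of CEACAM5 and CEACAM6 did not overlap before or after scaling, and those of CD55 overlapped after it. None of the 3 passed (limma, Benjamini-Hochberg adjusted p = 0.748 each). The 2 tested Wnt secretion genes, WLS, a carrier of Wnt proteins, and PORCN, which attaches their lipid, had scaled log2 fold changes of -0.14 and 0.38, and neither passed.

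The labelled cell type was checked against marker genes. Of 10 hepatocyte genes 7 had a mean of at least 1 FPKM, but ALB, the albumin gene, lay at 0.53 to 1.22 FPKM, TTR at 0.00 to 0.17 FPKM and APOA1 at 0.18 to 0.43 FPKM. All 4 intestinal epithelial genes, CDX2, KRT20, VIL1 and LGALS4, had a mean of at least 1 FPKM. Their sum was 152 to 319 FPKM in the controls and 85.2 to 136 FPKM with TP53TG1, and 129 to 289 against 96.4 to 140 after scaling. The sum was thus lower with TP53TG1, as TMED6 was, with groups that did not overlap before scaling and overlapped after it. It does not describe each gene, since 2 of the 4 had groups that did not overlap before scaling, and 1 after it. Before scaling the groups of CDX2 and LGALS4 overlapped. LGALS4 stood at 134.71, 23.96 and 22.59 FPKM in the controls and at 27.09, 12.65 and 3.21 FPKM with TP53TG1. The part of these genes in the TMED6 difference was not tested. Of 8 stromal, endothelial and blood cell genes 3 had a mean of at least 1 FPKM, COL1A1, COL1A2 and PECAM1. Their list summed to 8.19 to 10.1 FPKM in the controls and 8.18 to 18.7 FPKM with TP53TG1, with PTPRC and CD3E at or below 0.13 FPKM in all 6 libraries.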

How the data were processed

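RNA of 3 control and 3 TP53TG1 libraries was sequenced from TruSeq libraries, per the labels' protocols. The submitters' processing notes list HISAT2, StringTie and the build GRCh38.p10. The sources used here give no tool versions, settings or strandedness. Per transcript, the authors deposited FPKM values as 1 number with 2 decimals, after alignment and quantification per the submitters' processing notes. No unit is stated. FPKM was taken because totals differ between libraries, which coverage per base would also meet. Blank symbols were filled by transcript ID and transcripts summed per gene. Lengths, types and coordinates came from GENCODE 29 (GRCh38), which held 99.8% of transcripts.

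The limma 3.58.1 test (trend, R 4.3.3) used log2(FPKM + 1) of genes averaging 1 FPKM or more, with Benjamini-Hochberg adjustment at 0.05, and was tested on simulated data. Alternatives were a pseudocount of 0.1, no filter, a mean of at least 5 FPKM, median-of-ratios scaling, TPM, a replicate block, omitted libraries, and protein-coding transcripts alone, the last added after seeing the data. Fragments were estimated from the low values of genes with 1 transcript, where 1 fragment was worth less as length beyond about 244 to 268 nt grew. Across genes, deviations from group means correlated at 0.710, 0.562 and 0.289 between libraries numbered 1, 2 and 3. Libraries of unlike number reached 0.400, for control replicate 3 with TP53TG1 replicate 2. TP53TG1 replicate 3 correlated at 0.302 with control replicate 2, so these values do not establish that the numbers mark pairs. The fit reported used the group only, and the number served as a block in alternatives.

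The members and lists were chosen with earlier results of these data known. All members, the 3 genes of each list with the smallest p and the 5 genes most like TMED6 and TMED10 were named. Python 3.11.15, pandas 2.3.3 and matplotlib 3.10.9 served for tables and figures.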

Additional observations from a re-analysis of the deposited data

How the results depend on the processing

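The number of genes past the threshold was 1 in the fit reported, 2 with a mean of at least 5 FPKM and 2 with median-of-ratios scaling (TTC28-AS1_2 and TP53TG1 in both), and 0 with no filter or with protein-coding transcripts alone (limma; 827 and 183 genes at an unadjusted p under 0.05). With the replicate block it was 192, and 6 where that block was joined to median-of-ratios scaling. Leaving out 1 library gave 0 to 1, with 0 without control replicate 1 or control replicate 3 (267 and 135 genes at an unadjusted p under 0.05). The cause was not tested. Under TPM the count stayed at 1. Among members the replicate block changed the call of TMED6 alone (limma adjusted p = 0.00553), with its log2 fold change unmoved and its SE at 0.334 against 0.323. TMED6 stayed below 0 in the 14 alternatives run, from -2.31 to -1.145, and could not be tested at a mean of at least 5 FPKM. No early secretory list gene passed in any of the 15 alternatives. The TMED6 values rest on few fragments, about 5 to 10 in each TP53TG1 library.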
